A study of Homo sapiens with 4 samples.

Results

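HOX genes were followed through their 4 clusters in PC3 and DU145 cells, with the antisense RNAs that the clusters carry. Members were all array probes whose accession matched a gene named HOXA, HOXB, HOXC or HOXD with a number, an antisense RNA named after these clusters, or HOTAIR, HOTTIP or HOTAIRM1. This gave 53 genes on 71 probes, of 25121 genes with a symbol and 58196 probes in all. Of the 53 genes, 39 encode HOX proteins and 14 are antisense RNAs, and 17 lie in HOXA, 12 in HOXB, 14 in HOXC and 10 in HOXD. The RefSeq symbols HOXA10-HOXA9, HOXB-AS2 and HOXB-AS4 had no matching probe.

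PC3 and DU145 are established human prostate cancer cell lines, derived from a bone and a brain metastasis, that grow without androgen. Each line was measured with an shRNA against luciferase (PC3-shC and DU145-shC) or an shRNA against ESS2, a nuclear protein that acts as a transcriptional coregulator (PC3-shESS2 and DU145-shESS2). The labels describe all cells as transduced, the series text names lentivirus, and the study's methods describe PC3 cells transfected with an shRNA plasmid and selected in puromycin. All groups therefore carry an shRNA, no cells without one were measured, and the selection of the DU145 cells and whether the cells were pools or clones are not given in the sources used here. RNA of each of the 4 conditions was hybridized to 1 one-colour Agilent array, so no difference within a cell line has a replicate check and none is given a p-value.

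HOX proteins are homeodomain transcription factors that give cells their position along the body axis and the limbs. Vertebrate HOX genes stand in a fixed order within each cluster, numbered by paralog group from 1 to 13, and the order in the cluster follows the order of expression from head to tail. In the adult, HOX genes keep a pattern typical of the organ, and high-numbered genes such as HOXB13 are known from the prostate and the hindgut. Polycomb complexes keep silent clusters closed, MLL complexes keep active ones open, and the TALE homeodomain proteins of the PBX, MEIS and PKNOX families bind DNA together with HOX proteins. HOTAIRM1, HOTTIP and HOTAIR are long noncoding RNAs transcribed from within or beside the clusters.

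The arrays had 62976 spots each, of which 60901 were not controls, and between 50.8% and 52.6% of these were well above background, which limits how firmly dim genes can be compared. ESS2 itself had a processed signal of 133 in PC3-shC against 53.6 in PC3-shESS2 cells, a log2 ratio of -1.45, and of 85.7 in DU145-shC against 17.3 in DU145-shESS2 cells, a log2 ratio of -2.35. CTNNA1, which PC3 cells are known to lack, was well above background on both DU145 arrays and on neither PC3 array. All 4 epithelial markers (KRT8, KRT18, EPCAM and CDH1) were well above background on all 4 arrays, and the log2 ratio of EPCAM was -2.61 between the DU145 arrays. KLK3 was not well above background on any array. Among markers of other cell types, CD14 had a log2 ratio of -2.16 and PECAM1 of -4.51 between the PC3 arrays, where 2 of 4 leukocyte, 3 of 3 endothelial and 2 of 4 fibroblast markers were well above background. The other expressed leukocyte and endothelial markers had log2 ratios there of -0.13 (PTPRC), 0.18 (VWF) and 0.03 (CDH5). The fall of the leukocyte and endothelial sums between the PC3 arrays is thus carried by CD14 and PECAM1. The summed signal of the leukocyte list was 291, 124, 209 and 325 on PC3-shC, PC3-shESS2, DU145-shC and DU145-shESS2, that of the endothelial list 410, 100.1, 60.2 and 70.7, and that of the fibroblast list 285, 217, 99.7 and 93.2, and CD3E, COL1A2 and PDGFRA were not well above background on any array. Their part in the HOX values was not tested. In cultures of this kind, fewer cells with a transcript and less of it per cell cannot be told apart. The 2 PC3 arrays shared a scan and a Feature Extraction version, and the 2 DU145 arrays shared others, so cell line and array batch cannot be told apart.

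Start-site windows are shown for members that moved together or shared a start region. They run from 250 bases before to 50 bases after the annotated start, written 5′ to 3′ on the gene's strand, from RefSeq on GRCh38.p14. HOXA13 and HOTTIP start in opposite directions from 1 region at the end of HOXA, and their windows, chr7:27200042-27200341 on the minus strand and chr7:27200171-27200470 on the plus strand, overlap by 171 bases, printed in capitals. Both were brighter in PC3 than in DU145 cells, as given with the values of HOXA.

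HOXA13: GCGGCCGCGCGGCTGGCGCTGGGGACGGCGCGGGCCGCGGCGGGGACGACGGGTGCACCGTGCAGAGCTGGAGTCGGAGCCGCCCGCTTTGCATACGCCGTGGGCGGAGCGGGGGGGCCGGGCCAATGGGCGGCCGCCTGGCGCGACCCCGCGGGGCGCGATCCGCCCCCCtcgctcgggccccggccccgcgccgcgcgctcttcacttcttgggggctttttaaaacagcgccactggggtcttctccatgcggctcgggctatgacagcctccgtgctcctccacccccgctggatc
HOTTIP: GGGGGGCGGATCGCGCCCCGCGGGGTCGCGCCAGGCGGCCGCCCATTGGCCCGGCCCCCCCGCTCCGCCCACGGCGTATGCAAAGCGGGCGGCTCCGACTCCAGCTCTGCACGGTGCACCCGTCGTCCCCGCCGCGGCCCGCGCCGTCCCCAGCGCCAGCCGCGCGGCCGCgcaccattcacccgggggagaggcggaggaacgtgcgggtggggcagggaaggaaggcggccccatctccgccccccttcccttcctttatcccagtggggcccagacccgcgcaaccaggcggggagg

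HOXA11 and its antisense RNA HOXA11-AS are arranged in the same manner, and 275 bases of their windows overlap, in capitals in the window of HOXA11 at chr7:27185183-27185482 on the minus strand. The window of HOXA9, at chr7:27165488-27165787 on the minus strand, is shown because HOXA9 had the widest measured difference between the cell lines in HOXA, and its capitals mark the letters TATAAA. HOXC4 and HOXC5 share 1 annotated start window, chr12:54016638-54016937 on the plus strand, and took opposite directions under knockdown in the 2 cell lines.

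HOXA11: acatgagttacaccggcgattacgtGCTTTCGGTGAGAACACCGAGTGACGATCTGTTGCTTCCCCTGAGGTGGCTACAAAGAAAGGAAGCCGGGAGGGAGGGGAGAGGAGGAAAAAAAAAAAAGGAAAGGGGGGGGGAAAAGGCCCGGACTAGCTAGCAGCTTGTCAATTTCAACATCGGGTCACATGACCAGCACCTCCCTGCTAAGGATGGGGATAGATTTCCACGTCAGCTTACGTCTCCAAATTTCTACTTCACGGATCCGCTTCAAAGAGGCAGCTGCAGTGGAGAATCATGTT
HOXA9: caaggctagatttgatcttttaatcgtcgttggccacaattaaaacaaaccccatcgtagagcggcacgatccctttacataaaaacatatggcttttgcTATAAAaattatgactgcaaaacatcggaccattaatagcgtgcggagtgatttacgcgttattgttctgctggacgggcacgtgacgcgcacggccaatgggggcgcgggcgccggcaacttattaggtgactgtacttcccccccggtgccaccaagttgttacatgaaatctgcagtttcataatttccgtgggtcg
HOXC4: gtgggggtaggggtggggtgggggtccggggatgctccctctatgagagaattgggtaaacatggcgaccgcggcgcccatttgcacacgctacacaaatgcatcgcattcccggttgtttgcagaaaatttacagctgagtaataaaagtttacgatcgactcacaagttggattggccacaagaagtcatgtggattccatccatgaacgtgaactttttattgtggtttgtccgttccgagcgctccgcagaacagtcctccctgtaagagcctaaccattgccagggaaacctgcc

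The table held 38 windows of 300 bases for 30 HOX symbols. Among them the median was 15 CpG dinucleotides and 54.7% GC, against 14 and 58.7% over 35116 windows of all genes. The window of HOXA13 held 44 CpG and that of HOTTIP 41, while that of HOXA9 held 22 and that of HOXC4 and HOXC5 15. Searched on both strands, the letters TATAAA of a TATA box stood in 6 of 38 HOX windows and in 11.5% of all windows. TGATTNAT, a motif bound by PBX and HOX proteins together, stood in 2 of 38, those of HOXA2 and HOXD11, and in 2.82% of all windows. An NF-κB motif stood in 0 of 38 and in 1.91% of all windows.

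Most HOX genes outside HOXD were well above background in both cell lines. A gene counted as expressed where at least 1 of its probes was flagged well above background by the scanner software. Of the 53 members, 40 were well above background in PC3-shC, 43 in PC3-shESS2, and 38 in each of DU145-shC and DU145-shESS2 cells. On all 4 arrays 34 were, 7 were on PC3 arrays only, 2 (HOXB7 and HOXC-AS1) on DU145 arrays only, and 8 on none. Those 8 were all protein-coding and included HOXB1, HOXC11, HOXC12, HOXD4, HOXD10, HOXD11 and HOXD12. By cluster, 10 of 11 protein-coding HOXA genes, 8 of 10 HOXB genes and 6 to 7 of 9 HOXC genes were well above background on each array, against 2 of 9 HOXD genes on each DU145 array, 3 on PC3-shC and 5 on PC3-shESS2. HOXD1 was well above background on 3 arrays. By the brightest probe, 43 of 53 members were well above background on 1 or both PC3 arrays, beside 16764 of 25121 genes. On 1 or both DU145 arrays 38 members were, beside 16844 genes.

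**Figure D1:**
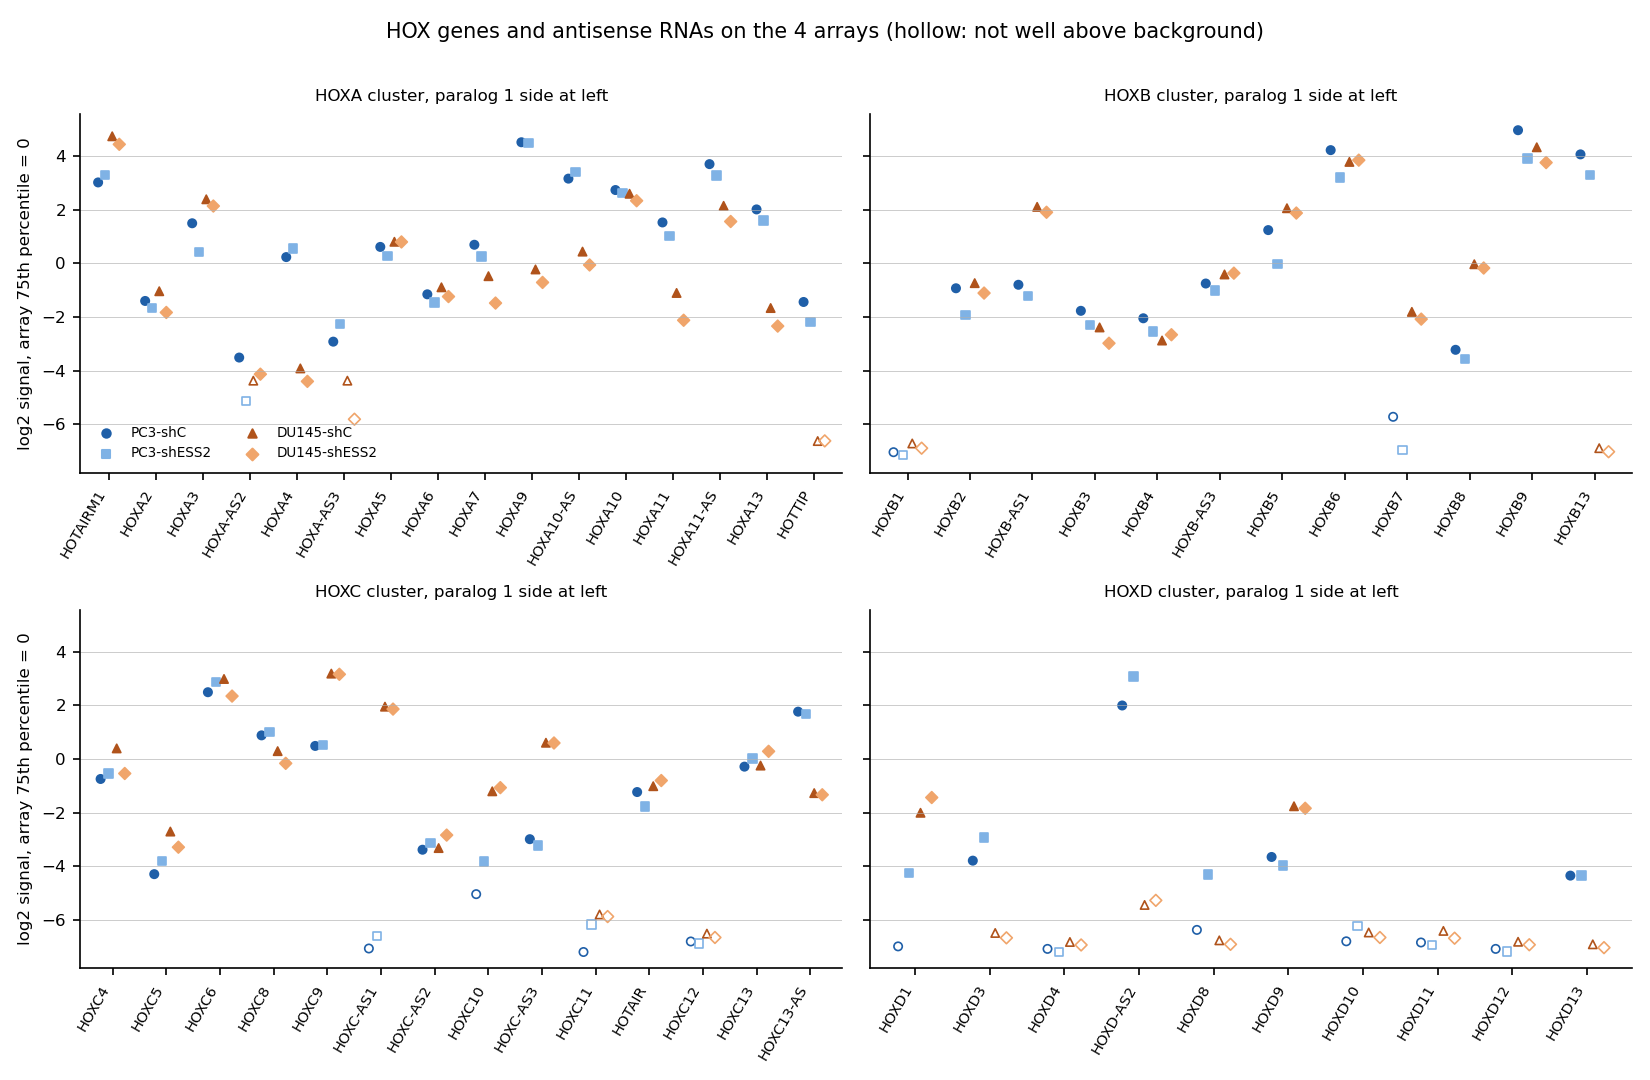
Log2 processed signal of 52 of the 53 HOX genes and antisense RNAs, with the 75th percentile of each array set to 0, for the 4 arrays, in cluster order with paralog 1 at the left of each panel. Heights can be compared between arrays for 1 gene but not between genes, since probes differ in brightness, and the hollow points at the bottom of the HOXD panel show that 4 of its 10 members were not well above background on any array.

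Signals are given as the scanner software wrote them, whereas every ratio was taken after each array's 75th percentile was set equal. That percentile was 263 on PC3-shC and 290 on PC3-shESS2, and 212 and 218 on the DU145 arrays, so a signal that was slightly higher after knockdown can have a ratio slightly below 0.

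The 2 cell lines carried different HOX patterns, which were read from the control arrays and then from the knockdown arrays, a separate pair. Genes had to be well above background on 1 or both arrays of a pair, and a dim value was raised to the lowest signal well above background on its array, so that such a fold is a lower bound. Between PC3-shC and DU145-shC arrays 44 members were compared, of which 12 were more than 2-fold higher in PC3 and 12 more than 2-fold lower, and 42% of all 17475 genes compared passed the same mark. Under scaling to the median the split became 18 higher and 11 lower, and in the deposited scaled values 11 and 14. On the knockdown arrays, 12 of 44 members were again more than 2-fold higher and 10 again more than 2-fold lower, and 5 of the 44 had the opposite sign on the 2 pairs of arrays. In the limma fit over all 4 arrays with cell line and knockdown as terms, 27 of 44 members differed between the lines at an adjusted p under 0.05, 15 higher in PC3 and 12 lower, beside 52.3% of all 17126 genes tested. The fit had 1 residual degree of freedom per gene, its spread was borrowed across genes, and dim values entered at the raised level.

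HOXA genes of the high-numbered end were brighter in PC3 cells. The median log2 ratio of HOXA, PC3-shC over DU145-shC, was 1.31 over 16 members, against 0.12 over all genes, and 9 members were more than 2-fold higher and 1 more than 2-fold lower. By position it was -0.63 over the 2 measured genes of paralogs 1 to 3, 0.49 over 4 genes of paralogs 4 to 8, and 3.16 over 4 genes of paralogs 9 to 13. HOXA9, a paralog 9 factor known from leukaemia, had signals of 6020 in PC3-shC and 6490 in PC3-shESS2 cells, and of 181 in DU145-shC and 133 in DU145-shESS2 cells, and later values follow this order. Both PC3 arrays were far above both DU145 arrays, 26.8-fold between controls, and the limma difference was 4.97 ± 0.21 (SE) on the log2 scale with an adjusted p of 0.0016. HOXA13, the last gene of the cluster and a factor of limb and genital development, had signals of 1060 and 875 in PC3 against 66.7 and 43.0 in DU145 cells, 12.8-fold between controls. HOTTIP, transcribed next to HOXA13, had 96.8 and 63.5 in PC3 and 2.14 and 2.21, not well above background, in DU145 cells, at least 9.02-fold, while its dimmer probe had 12.2 and 13.4 against 2.26 and 2.13, a bound of 0.19 on the log2 scale. HOXA11, a factor of the limb and the uterus, had 757 and 584 against 98.5 and 50, 6.19-fold, and HOXA11-AS, whose start window overlaps its own, 3420 and 2820 against 937 and 643, 2.94-fold.

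HOXA4, in the middle of the cluster, stood apart from its neighbours. Its signals were 309 and 425 in PC3 and 14.0 and 10.3 in DU145 cells, 17.8-fold between controls, with a limma difference of 4.55 ± 0.27 (SE) and an adjusted p of 0.0024. HOXA5, known from lung development, had 402 and 352 against 370 and 379, HOXA6 118 and 105 against 114 and 92.3, and neither passed the test between lines. HOXA7 had 425 and 345 against 152 and 78.0, 2.25-fold. HOXA10-AS had 2350 and 3050 against 287 and 209, 6.60-fold. At the low-numbered end the order turned: HOTAIRM1, a noncoding RNA known from myeloid cells, had 2130 and 2850 in PC3 against 5660 and 4730 in DU145 cells, 3.30-fold lower in PC3, and HOXA3, a factor of the pharyngeal arches, had 741 and 388 against 1110 and 959. HOXA2, which patterns the hindbrain, had 99.4 and 91.6 against 103 and 61.2. HOXA10 had 1750 and 1800 against 1280 and 1100 on its brightest probe, 1.10-fold after scaling. HOXA-AS3 was well above background on PC3 arrays only, at 34.7 and 60, and at least 2.74-fold higher there.

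HOXB13 was bright in PC3 cells and not well above background in DU145 cells. It is the HOX factor of the prostate, and its signals were 4400 and 2860 in PC3 and 1.78 and 1.67 in DU145 cells. The ratio between controls was at least 410-fold, with an adjusted limma p of 0.0012. PRAC1, a small gene of prostate and colon beside HOXB13, had 2480 and 2160 in PC3 and 1.88 and 1.74 in DU145 cells, a log2 ratio of at least 7.85, whereas PRAC2 next to it had 455 and 478 against 283 and 252. HOXB9 had 8220 and 4360 in PC3 against 4260 and 2950 in DU145 cells, and HOXB6 had 4910 and 2660 against 2920 and 3140, and neither passed the limma test between lines. Between HOXB6 and HOXB9 the direction turned. HOXB8 had 28.1 and 24.4 in PC3 against 207 and 193 in DU145 cells, 9.14-fold lower in PC3, and HOXB7 had 4.97 and 2.34, not well above background, against 60.4 and 51.5, at least 8.38-fold lower. HOXB-AS1 had 151 and 124 against 913 and 816, 7.50-fold lower in PC3, and HOXB-AS3 156 and 143 against 159 and 169. HOXB2, HOXB3 and HOXB4 at the low-numbered end were within 2-fold on their brightest probes, HOXB4, known from blood stem cells, at 63.5 and 49.8 against 28.8 and 34.4. The median log2 ratio of HOXB was -0.19 over 11 members.

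On the control arrays most HOXC members were brighter in DU145 cells. Its median log2 ratio was -0.82 over 12 members, of which 6 were more than 2-fold lower in PC3 and 1 more than 2-fold higher. On the knockdown arrays the median was -0.40, with 4 lower and 2 higher past 2-fold, and HOXC4, at -1.14 between controls, was at 0.0033. HOXC-AS1 had signals of 1.96 and 3, not well above background, in PC3 and 821 and 793 in DU145 cells, at least 114-fold lower in PC3. HOXC9, a gene of the thoracic region in the same stretch, had 369 and 416 against 1930 and 1950, 6.49-fold lower, HOXC-AS3 33.1 and 30.9 against 323 and 330, a log2 ratio of -3.60, and HOXC10 7.99 and 20.5 against 92.0 and 104, at least 12.8-fold lower on the control arrays. These 4 neighbours all passed the limma test. HOXC-AS2, in the same stretch, had 25.2 and 33.2 against 21.2 and 30.5 and did not pass it. HOXC13-AS at the far end and HOXC8 were higher in PC3 cells by the limma test. HOXC13-AS had 895 and 937 in PC3 against 87.8 and 86.5 in DU145 cells, 8.22-fold higher in PC3, while HOXC13 itself, a factor of hair and nails, had 216 and 293 against 179 and 266. HOXC6, a gene known to be active in prostate cancer, had 1480 and 2120 against 1680 and 1110. HOXC8 had 485 and 583 against 260 and 195, log2 ratios of 0.59 on the control and 1.17 on the knockdown arrays, with an adjusted limma p of 0.042. HOTAIR had 112 and 84.8 against 105 and 125 on its brightest probe.

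HOXD was nearly silent apart from single genes. HOXD-AS2, an antisense RNA of the middle of the cluster, had signals of 1050 and 2460 in PC3 and 4.87 and 5.64, not well above background, in DU145 cells, at least 97.8-fold higher in PC3. HOXD3 was well above background only in PC3 cells, at 19.0 and 38.0 against 2.36 and 2.14, and HOXD13, a factor of the digits, likewise at 12.9 and 14.3 against 1.76 and 1.66. HOXD1 ran the other way, with 2.07, not well above background, and 15.3 in PC3 against 52.8 and 80.6 in DU145 cells, at least 7.33-fold lower on the control arrays. HOXD9 had 20.9 and 18.5 against 62.5 and 61.0, 3.71-fold lower in PC3. The median log2 ratio of 5 HOXD members was 0.27, and it ranged from -2.05 to 2.43 relative to all genes over the alternatives tried, so no direction is given for the cluster.

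The comparison of ESS2 knockdown with control asked whether HOX genes move with ESS2, one of the gene families the study looked at in PC3 cells. For HOX genes and the other families compared with them, the study reported no significant changes linked to prostate cancer. Between the PC3 arrays 43 members were compared, 26 lower and 17 higher after knockdown, or 60.5% lower beside 55.7% of all genes, and 7 passed 2-fold, 5 lower (HOXA3, HOXA-AS2, HOXB5, HOXB6 and HOXB9) and 2 higher (HOXC10 and HOXD-AS2), beside 7.75% of all 16764 genes compared. HOXA-AS2, HOXC10, HOXD1 and HOXD8 were well above background on 1 PC3 array only on the probe used, so their directions were fixed. With both arrays well above background 5 members passed 2-fold, 4 lower and 1 higher, beside 6.65% of all genes. The 7 became 3 under quantile normalization or normexp, and under median scaling 0 were higher and 6 lower. The median log2 ratio was -0.26, against -0.06 over all genes. Between the DU145 arrays 38 members were compared, 29 lower and 9 higher, or 76.3% lower beside 52.8% of all genes, and 2 passed 2-fold, both lower, beside 4.83% of 16844 genes. There the median was also -0.26, against -0.02 over all genes. Among the 36 members compared in both lines, 19 were lower in both, 4 higher in both and 13 opposite, a share of 52.8%, 11.1% and 36.1%. Over 15480 genes the shares were 33.3%, 23.7% and 43.0%, so opposite signs were no more frequent among HOX members than among all genes. On its brightest probe no member passed 2-fold in both lines. Duplicate spots of 1 probe gave a log2 ratio an SD of 0.08, which covers neither the hybridization nor the cells.

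HOXB was lower throughout in PC3-shESS2 cells. All 10 members compared were lower, with log2 ratios from -1.26 to -0.27 and a median of -0.65. HOXB5 went from 621 to 286, 2.39-fold lower after scaling, HOXB9 from 8220 to 4360, 2.08-fold lower, and HOXB6 from 4910 to 2660, 2.04-fold lower. HOXB5 stayed past 2-fold under every alternative run, while HOXB9 was inside it under quantile normalization (-0.94) and in the deposited scaled values (-0.96), and HOXB6 under these (-0.88 and -0.94) and under normexp (-0.94). HOXB2, from 138 to 76.7, lay just inside the 2-fold mark at a log2 ratio of -0.99, and HOXB13 went from 4400 to 2860, a log2 ratio of -0.76. In DU145 cells the same cluster had a median of -0.19 over 10 members, 7 lower and 3 higher, with HOXB5 at 881 and 800, HOXB6 at 2920 and 3140, and HOXB9 at 4260 and 2950. HOXB3 was alike in the 2 lines, from 77.0 to 58.4 and from 40.4 to 27.6, with log2 ratios of -0.54 and -0.59. HOXB4 went from 63.5 to 49.8 in PC3 and from 28.8 to 34.4 in DU145 cells, and HOXB8 from 28.1 to 24.4 and from 207 to 193.

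Most HOXA members had ratios below 0, 12 of 16 in PC3 cells, with a median of -0.32, and 13 of 14 in DU145 cells, with a median of -0.48. Those above 0 in PC3 cells were HOXA-AS3, HOXA4, HOTAIRM1 and HOXA10-AS, and 2 members passed 2-fold there, HOXA3 and HOXA-AS2. HOXA3 went from 741 to 388 in PC3 cells, 2.11-fold lower (-0.97 on the log2 scale under quantile normalization, -0.88 under normexp and -0.99 in the deposited scaled values), and from 1110 to 959 in DU145 cells. HOXA2 leaned more in DU145 cells, with log2 ratios of -0.26 and -0.79. HOXA11 went from 757 to 584 in PC3 and from 98.5 to 50 in DU145 cells, where it was 2.03-fold lower, and HOXA7 from 425 to 345 and from 152 to 78.0, just past the same mark. Neither was past it under median scaling, under normexp background correction or in the deposited scaled values, where 0 HOX genes passed in DU145 cells. All 4 genes of paralogs 9 to 13 (HOXA9, HOXA10, HOXA11 and HOXA13) had ratios below 0 in each line, with medians of -0.26 and -0.58. That of HOXA9 in PC3 cells, -0.03, lies within the SD between spots. It was above 0 under quantile normalization (0.038) and in the deposited scaled values (0.058). HOXA13 went from 1060 to 875 and from 66.7 to 43.0, log2 ratios of -0.42 and -0.67. Of the antisense RNAs, HOXA11-AS went from 3420 to 2820 and from 937 to 643. HOTTIP went from 96.8 to 63.5 in PC3 on its brightest probe and from 12.2 to 13.4 on the other. HOXA-AS3 went from 34.7 to 60 in PC3, a log2 ratio of 0.65, or 0.21 under normexp. Another of its probes went from 13.9 to 16.6, a log2 ratio of 0.12. HOXA10-AS went from 2350 to 3050 and from 287 to 209. HOTAIRM1 and HOXA4 likewise had ratios above 0 in PC3 (0.28 and 0.32) and below 0 in DU145 cells (-0.30 and -0.48). HOXA-AS2 went from 23.0 to 8.24, not well above background, in PC3 cells, at least 2.81-fold lower, but its other probe went from 7.76, not well above background, to 13.1, so the 2 probes disagree. On the log2 scale it was at -0.54 for the mean of the probes and -0.37 under normexp, inside 2-fold.

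HOXC ran otherwise in PC3 cells. There 8 of 11 HOXC members were higher after knockdown, with a median of 0.21, 1 of them (HOXC10) compared only through its signal on the PC3-shESS2 array, and in DU145 cells 4 of 12, with a median of -0.04. The genes at the low-numbered end of HOXC took opposite directions. HOXC4 went from 157 to 200 in PC3 and from 279 to 150 in DU145 cells, log2 ratios of 0.21 and -0.94. HOXC5 went from 13.4 to 20.9 and from 32.5 to 22.3, and HOXC6 from 1480 to 2120 and from 1680 to 1110. HOXC8 went from 485 to 583 and from 260 to 195, but its log2 ratio in PC3 cells, 0.12, was under 2 times the SD between spots. With 1 array per condition, the difference between the lines was not tested. HOXC10 went from 7.99, not well above background, to 20.5 in PC3 cells, at least 2.08-fold higher (a bound of 0.95 on the log2 scale under median scaling, 0.98 under quantile normalization and 0.051 under normexp), and from 92.0 to 104 in DU145 cells. HOXC13 was higher in both, from 216 to 293 and from 179 to 266, and HOXC9 had log2 ratios of 0.03 and -0.03, within the SD between spots. HOXC-AS2 was also above 0 in both lines (0.26 and 0.48), though at -0.021 in PC3 cells under normexp. HOTAIR went from 112 to 84.8 and from 105 to 125. Under normexp the HOXC median relative to all genes was 0.11 in PC3 cells, against 0.26.

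In HOXD, 6 members were compared in PC3 cells, of which HOXD1 and HOXD8 entered only through the PC3-shESS2 array, so that their direction was fixed and no count or median over the cluster is read here. HOXD13, from 12.9 to 14.3, lay within the SD between spots, and HOXD9 went from 20.9 to 18.5. HOXD-AS2 went from 1050 to 2460, 2.12-fold higher (0.98 on the log2 scale under median scaling), and HOXD3 from 19.0 to 38.0, a log2 ratio of 0.86. HOXD1 and HOXD8 were not well above background on the PC3-shC array, at 2.07 and 3.17, and were on the PC3-shESS2 array, at 15.3 and 14.7, at least 1.55-fold and 1.49-fold higher. In DU145 cells only HOXD1 and HOXD9 could be compared, HOXD1 going from 52.8 to 80.6, 1.48-fold higher, and HOXD9 from 62.5 to 61.0. In PC3 cells the signals of the HOXD members compared, other than HOXD-AS2, lay between 2.07 and 38.0, close to background.

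Over both lines together, limma with cell line as a block and Benjamini-Hochberg adjustment called 0 of 44 HOX members for the knockdown, beside 0 of 17126 genes or 0% of all, and the lowest adjusted p among HOX members was 0.746. At an unadjusted p under 0.05 there were 7 HOX members, 15.9%, beside 1047 genes or 6.11% of all. They were HOXA7, HOXA11, HOXA13, HOXB2, HOXB3 and HOXB9, lower after knockdown, and HOXD1, higher. HOXD1 was not well above background on PC3-shC, at 2.07, and entered the fit at the raised level. Its direction in PC3 cells was thus fixed, and its p depends on that level, so it is not read as a result. HOXB9 had a fitted log2 difference of -0.81 ± 0.22 (SE) and HOXA11 of -0.77 ± 0.22 (SE), both with an adjusted p of 0.746. These 6 lower genes are protein-coding members of HOXA and HOXB, and none of HOXC was among the 7.

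Where a gene had several probes the brightest was used, and probes did not always tell the same story. The 4 probes of HOXA9 gave log2 ratios between the control arrays of 4.74, 4.32, 3.93 and 0.57. The last of them had signals of 750 and 768 in PC3 and 408 and 390 in DU145 cells, a smaller difference than that of the other three. The 2 probes of HOXA10 gave 0.14 and 1.73 between lines, -0.10 and -1.10 for knockdown in PC3 and -0.26 and -1.26 in DU145 cells. On the second probe, HOXA10 went from 1120 to 576 and from 272 to 117, past 2-fold in both lines, whereas the brightest probe went from 1750 to 1800 and from 1280 to 1100. HOXB2 gave -0.19 and -3.11 between lines, while its knockdown ratios were close to each other, -0.99 and -0.79 in PC3 and -0.37 and -0.43 in DU145 cells. The 4 probes of HOTAIR were lower after knockdown in PC3 cells, from -1.10 to -0.51, and spread from -0.23 to 0.89 in DU145 cells and from -0.22 to 1.71 between lines. Probes of HOTAIRM1, HOXA11-AS and HOXB-AS1 kept 1 direction in each of the 3 comparisons.

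Partners and regulators of HOX genes were read beside all genes, of which 7.75% passed 2-fold after knockdown in PC3 and 4.83% in DU145 cells. Between the control arrays MEIS1, a TALE partner of HOX proteins, had a log2 ratio of 3.05 and PBX3 one of -2.55. Of 27 Polycomb genes, all well above background on all 4 arrays, CBX6 and CBX7, subunits that read methylated histone H3, were lower in PC3-shESS2 cells, from 11100 to 4620 and from 1200 to 547, and PCGF3 was higher in DU145-shESS2 cells, from 35.7 to 79.4. CBX6 and CBX7 also had log2 ratios of -0.69 and -0.66 in DU145 cells. The medians of the Polycomb list were 0.05 in PC3 and -0.06 in DU145 cells. None of 11 genes of MLL complexes and H3K27 demethylases and none of the 2 measured genes of the CDX and ParaHox list passed 2-fold in either line. Lists this short can hold none at those shares. For the knockdown, limma called 0 genes of these lists, as it called 0 of 17126 genes. At an unadjusted p under 0.05 in that fit there were 3 of 27 Polycomb genes, beside 6.11% of all genes tested.

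Genes around the clusters were read for comparison, the 3 nearest on each side with a symbol on the array and those inside. Beside HOXA, EVX1 had 1470 and 1460 in PC3 and 1380 and 1240 in DU145 cells and SKAP2 had 1830 and 2050 against 2360 and 2730, log2 ratios of -0.22 and -0.68 between the control arrays. Beside HOXB, SKAP1 went from 49.3 to 18.6 in PC3 cells, a log2 ratio of -1.55, and from 434 to 488 in DU145 cells, while SNX11 had log2 ratios of 0.06 and 0.10. On the other side of HOXB, ATP5MC1 went from 11300 to 6850 and from 6370 to 5230, log2 ratios of -0.86 and -0.32, and CALCOCO2 had -0.09 and -0.05. Beside the paralog 1 end of HOXC, LOC100240734 went from 8.04, not well above background, to 22.3 in PC3 and from 64.9 to 34.8 in DU145 cells, a bound of 1.18 and a log2 ratio of -0.94. At the other end of HOXC, CALCOCO1 was higher in both lines, with log2 ratios of 0.29 and 0.66. LOC105369774 there had a bound of 0.25 in PC3 and a ratio of -0.35 in DU145 cells. Both LOC genes were compared in PC3 cells only through the PC3-shESS2 array, so their direction there was fixed and is not read. On the paralog 1 side of HOXD, LINC01116 went from 526 to 1690 in PC3 cells, a log2 ratio of 1.54, and from 49.7 to 27.5 in DU145 cells, -0.89, and MTX2 on the same side had 0.026 and -0.055. Inside HOXD, the noncoding RNA HAGLR had 4.39, not well above background, and 12.6 in PC3 against 34.1 and 39.1 in DU145 cells, a bound of -2.24 on the log2 scale.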

How the data were processed

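Total RNA of 4 cell cultures was labelled with Cy3 and measured on 1-colour Agilent arrays, 1 per condition. The authors deposited scanner files from Agilent Feature Extraction, 12.1.0.3 for PC3 and 12.0.3.1 for DU145 cells, in which each spot's intensity is the processed signal, with background subtracted and no scaling between arrays. A deposited table holds the same intensity times 1 constant per array. Its use was an alternative.

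Each array's 75th percentile over non-control spots was subtracted from log2 of the signal. Outlier spots were left out and spots of 1 probe averaged. Accessions were matched without version to RefSeq (GRCh38.p14), which named 35080 of 58201 probes, and the 71 HOX probes had the same symbol in both annotation releases of the array. For a gene with several probes, the probe with the highest mean was used. Dim values were raised to the lowest value among probes well above background. A gene was compared if 1 or both arrays of a pair were well above background, and entered limma with 2 or more of 4. limma was fitted over all genes with cell line and knockdown as terms, with Benjamini-Hochberg adjustment. The fit was tested on simulated data.

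Members and lists were chosen with earlier results of these data known. Values are given in full for members past 2-fold in a knockdown comparison, called by limma for knockdown, among the 3 brightest of a cluster, or past log2 3 between the control arrays, for antisense RNAs above background, and for partners past 2-fold. Other genes were named after their values were seen. Alternatives were the median, quantile normalization, normexp (offset 50, on the median spot signal), the deposited scaled values, 2 filters on dim genes, plain dim signal, the mean of probes, outliers kept, and for limma no block and an intensity trend. Opposite directions in the lines were listed where both ratios passed 2 spot SDs. Some genes are not reported here. Array coordinates are not given, as their build differs. The tools were limma 3.58.1 in R 4.3.3, and numpy 2.4.6, pandas 2.3.3 and matplotlib 3.10.9 in Python 3.11.15.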

Additional observations from a re-analysis of the deposited data

Results flagged for a closer look

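Some HOX members took opposite directions after ESS2 knockdown in PC3 and DU145 cells, on arrays where they were well above background throughout, and with both log2 ratios beyond 2 times the SD between spots. With 1 array per condition the difference was not tested. The log2 ratio in PC3 minus that in DU145 was 1.14 for HOXC4 (0.21 and -0.94), 1.08 for HOXC5 (0.50 and -0.58) and 1.02 for HOXC6 (0.38 and -0.64), neighbours at the low-numbered end of HOXC. In HOXA it was 0.80 for HOXA4 (0.32 and -0.48), 0.73 for HOXA10-AS (0.24 and -0.50) and 0.58 for HOTAIRM1 (0.28 and -0.30). The difference ran the other way for HOXB4, -0.71 (-0.49 and 0.22), and for HOTAIR, -0.75 (-0.54 and 0.21), whose 4 probes spread widely in DU145 cells. The HOXC median differed by 0.25 (0.21 and -0.04), and its DU145 value is smaller than the SD between spots. On single probes the opposite signs of HOTAIR were not general, as 2 of its 4 probes were below 0 in both lines (-0.51 and -0.07, -0.56 and -0.23). Opposite signs as such were found for 13 of 36 HOX members, 36.1%, beside 43.0% of 15480 genes. The 8 genes were well above background on all arrays, so filters and the treatment of dim spots could not change them. Under the 4 alternatives that did move every one of them, median scaling, quantile normalization, normexp and the deposited scaled values, the 8 genes and the HOXC median kept opposite signs. Median scaling and the deposited values shift the ratios of a line together, in PC3 cells by -0.10 and 0.090, too little to turn these signs. Under normexp some ratios fell under 2 times the SD between spots. These were HOXC5 in PC3 (0.071), HOXB4 and HOXA4 in DU145 (0.088 and -0.11) and the HOXC median in PC3 cells (0.051).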

How the results depend on the processing

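The count of HOX genes past 2-fold in PC3 (7) was 3 under quantile normalization, 3 under normexp, 4 in the deposited scaled values and 11 with no filter on dim genes. In DU145 (2) it was 0 under scaling to the median, 0 under normexp and 0 in the deposited scaled values. Between control arrays it was 24, with 12 higher and 12 lower in PC3, and the split was 18 and 11 under scaling to the median, 11 and 14 in the deposited scaled values, where the median of all genes moved by 0.46 and -0.45. In PC3 scaling to the median gave 0 higher and 6 lower, against 2 and 5, and moved the median of all genes by -0.10.

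Cluster medians are given here relative to the median of all genes. For knockdown in PC3, under normexp HOXB was -0.48, HOXC 0.11 and HOXD 0.14, against -0.60, 0.26 and 0.66, and HOXD was 0.54 under quantile normalization, 0.37 with no filter, 1.03 with plain dim signal and 0.50 with both arrays above background. In DU145, under normexp HOXA was -0.26 and HOXD 0.15, against -0.46 and 0.27, and with no filter HOXA was -0.37, HOXB -0.064 and HOXD -0.0048. Between lines HOXA (1.19) was 0.998 for the mean of probes, 0.50 under normexp, 1.37 with no filter and 1.01 with both arrays above background. HOXB (-0.31) was -0.11 under quantile normalization, -0.12 under normexp and -0.064 with no filter. HOXC (-0.94) was -1.03 under quantile normalization, -0.54 under normexp, -0.62 with no filter and -0.52 with both arrays above background. HOXD (0.14) was 0.66 under quantile normalization, 0.031 under normexp, -0.067 with no filter, 2.43 with plain dim signal and -2.05 with both arrays above background. The causes were not tested.

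limma called 0 HOX genes for knockdown under every alternative run, with 0 to 8 at an unadjusted p under 0.05, 0 of them with no replicate block, and 19 to 30 for cell line, 26 with no replicate block. The labels number no replicates, so cell line served as the block, and with 1 array per condition none could be left out within a line. No named HOX gene past 2-fold changed sign under the alternatives run. For the knockdown in PC3 cells this could hardly fail where ratios shift together, by -0.10 under median scaling and 0.090 in the deposited scaled values. Under normexp, HOXC10 fell to a bound of 0.051 and HOXA-AS2 to -0.37 there. HOXD and other genes near background are limited by signal over background.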
